A study of Mus musculus with 19 samples.

Results

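The Frizzled receptors of the mouse are the products of 10 genes, Fzd1 to Fzd10, and their transcripts were followed here in ipsilateral and contralateral retinal ganglion cells (iRGCs and cRGCs). The members were the rows of the count tables whose Ensembl identifiers belong to Fzd1 to Fzd10 in the GRCm38 annotation, and they make up 10 of the 47069 genes counted. All 10 passed the filter on low counts, with 15941 genes in all. Of these 10, 9 reached the level of the filter, 0.332 CPM of the library total, in all 6 libraries, and Fzd10 did so in 5, among them 2 of 3 cRGC libraries. The rule itself uses no measured value.

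Frizzled proteins are receptors with an extracellular cysteine-rich domain, which binds Wnt ligands, and a bundle of membrane-spanning helices, which passes the signal to Dishevelled inside the cell. Together with the co-receptors Lrp5 and Lrp6 they stabilise beta-catenin, which turns on target genes through TCF and LEF factors. With Celsr, Vangl and Prickle proteins they set planar cell polarity and steer growing axons. In the developing eye, Wnt signals act on progenitors at the retinal margin, on the retinal vessels and on axons of retinal ganglion cells, the neurons whose axons form the optic nerve.

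RNA was sequenced from cells sorted by flow cytometry for a green nuclear envelope, in 3 libraries of each population. All embryos were at E16.5, carried the Cre-dependent Sun1-GFP allele at Rosa26 with its CAG promoter, and came from a strain labelled C57/DBA F1, with males and females pooled and the genotype labelled WT. The iRGC libraries came from retinas with the ET33 Slc6a4-Cre (Sert-Cre) transgene, driven by the gene of the serotonin transporter, and the cRGC libraries from retinas with Pou4f2-Cre, a knock-in at the Brn3b locus, after the ventrotemporal (VT) region had been cut away. The design asks how neurons whose axons avoid the midline at the optic chiasm differ from those whose axons cross it. Cre leaves its mark in a cell and in all its descendants, and the Cre driver and the retinal region differed together with the population, so their parts in a difference cannot be told apart. The names of the libraries also begin with EH10 for every iRGC library and EH13 for every cRGC library, and what this prefix stands for was not given in the sources used here. The number of embryos behind an RNA library and whether libraries came from separate litters were not stated, so p-values measure the spread between these libraries.

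Reads assigned to genes numbered 28193178 to 33638083 in each library. Levels are given as CPM, the count scaled to a common library size after TMM scaling, in which 1 read was worth 0.0309 to 0.0384 CPM, and as mean ± SD of 3 libraries. Log2 fold changes, positive where iRGCs were higher, came from edgeR with their SE, and a gene was called when its Benjamini-Hochberg adjusted p over all tested genes was under 0.1. In bulk samples, fewer cells of a type and less RNA per cell cannot be told apart.

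The genes that define the populations were read first. Zic2, the transcription factor that directs axons to the ipsilateral side, was at 133.5, 173 and 157 CPM in the iRGC libraries and at 57.0, 60.2 and 65.7 CPM in the cRGC libraries (log2 fold change 1.34, SE 0.128, adjusted p = 2.09e-04). Pou4f1, a transcription factor of contralateral neurons, was lower in iRGCs with 107, 117 and 182 CPM against 861, 672 and 431 CPM (log2 fold change -2.28, SE 0.279, adjusted p = 4.00e-04). Pou4f2, whose locus drives Cre in the cRGC line, was also lower in iRGCs, with 74.8, 133.5 and 98.3 CPM against 191, 196 and 293 CPM (log2 fold change -1.15, SE 0.234, adjusted p = 0.00424). These 3 genes separated the populations without overlap. Slc6a4, the gene whose regulatory sequence drives Cre in the iRGC line, did not, with 2.06, 33.4 and 116 CPM in iRGCs against 48.1, 35.4 and 30.5 CPM in cRGCs (log2 fold change 0.41, SE 0.929, adjusted p = 0.768). The library labelled iRGC replicate 1 had less Slc6a4 than any cRGC library, and the numbers of called genes below are therefore also given without it, or said to be the same. Levels and shares include it. The labels name a merged signal track for the iRGC libraries with the library numbers of replicates 2 and 3 alone, and whether replicate 1 was left out of it was not stated in the sources used here.

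The 6 libraries differed as well in genes of other cells. The RGC marker list summed to 2643, 3717 and 5434 CPM in iRGCs and to 13790, 12490 and 15440 CPM in cRGCs, with Nefm as its most abundant gene, and 13 of its 15 genes were lower and 1 was higher (Atoh7). The retinal progenitor list summed to 10190, 9233 and 8234 CPM in iRGCs and to 2302, 3338 and 2858 CPM in cRGCs, with Ccnd1 as its most abundant gene, and 14 of its 16 genes were higher and 1 was lower (Six3). No gene of either list was at 0 in any library. Without iRGC replicate 1 the numbers called in both lists were the same. Progenitor transcripts were therefore more abundant in every iRGC library than in any cRGC library, and RGC transcripts less abundant. The part of this difference in the Frizzled values was not tested.

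Of the 10 Frizzled genes, 8 had more transcript in iRGCs, none had less and 2 did not pass the test. Among all tested genes, 23.3% were called higher and 23.1% lower in iRGCs. The median log2 fold change was 2.35 over the Frizzled genes and -0.0031 over all tested genes. The 8 called genes were Fzd2, Fzd4, Fzd5, Fzd6, Fzd7, Fzd8, Fzd9 and Fzd10, and in each of them all 3 iRGC libraries lay above all 3 cRGC libraries, as in 27.1% of the tested genes. Fzd1 and Fzd3 overlapped between the populations. With 3 libraries against 3, the exact permutation test, two-sided, gave its smallest possible p of 0.1 for each of the 8 called genes. Without iRGC replicate 1 the same 8 genes were called, with log2 fold changes of 0.87 (Fzd8) to 3.12 (Fzd6). With library totals in place of TMM scaling, 5100 tested genes were higher and 2842 lower, against 3707 and 3688 with TMM, and 9 Frizzled genes were called higher, the added one being Fzd3.

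**Figure D1:**
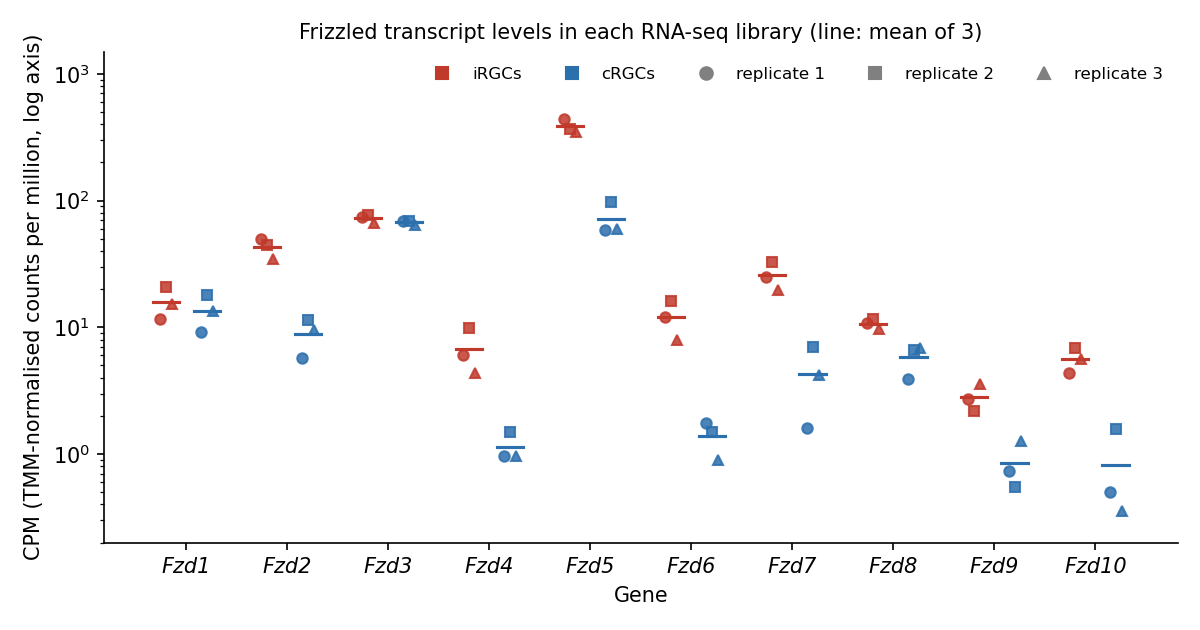
CPM of each Frizzled gene in each library on a log axis, with iRGCs in red, cRGCs in blue, the replicate number as the symbol and the mean of 3 libraries as a line. The colours are apart for the 8 called genes and mixed for Fzd1 and Fzd3, and Fzd5 is the highest, at 349.8 to 440.4 CPM in iRGCs.

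Fzd5 and Fzd8 are close relatives, and Fzd5 is known for its part in the growth of the optic cup and in keeping retinal progenitors. Fzd5 (ENSMUSG00000045005, chr1:64730558-64737751, minus strand, GRCm38, 2 exons) had 440.4, 367 and 349.8 CPM in the iRGC libraries and 59.1, 97.1 and 59.5 CPM in the cRGC libraries. The lowest iRGC library was several-fold above the highest cRGC library, which was replicate 2. The means were 386 ± 48.2 and 71.9 ± 21.9 CPM (SD, n = 3), and the ratio was 5.36 with a 95% interval of 3.86 to 7.44 (log2 fold change 2.42, SE 0.208, adjusted p = 2.05e-04). Of the Fzd5 exon bases, 17.8% are shared with the annotated gene Gm38058, so reads there are uncertain; Gm38058 itself was given 0 to 48 counts per library, against 1536 to 13693 for Fzd5. Fzd8 (ENSMUSG00000036904, chr18:9212163-9218136, plus strand, 1 exon) was far lower, with 10.9, 11.5 and 9.71 CPM in iRGCs and 3.88, 6.63 and 6.87 CPM in cRGCs. Its libraries did not overlap, but the gap between iRGC replicate 3 and cRGC replicate 3 was smaller than the spread within cRGCs. The ratio was 1.85 with an interval of 1.15 to 2.96 (log2 fold change 0.88, SE 0.300, adjusted p = 0.0436), and the call was lost without iRGC replicate 2 (adjusted p = 0.113) or without cRGC replicate 1 (adjusted p = 0.128).

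Fzd1, Fzd2 and Fzd7 form another branch of the family and act together in several embryonic tissues. Each is encoded by a single exon, and they lie at chr5:4753839-4758035 (Fzd1, ENSMUSG00000044674, minus strand), chr11:102604396-102608058 (Fzd2, ENSMUSG00000050288, plus strand) and chr1:59482424-59486955 (Fzd7, ENSMUSG00000041075, plus strand). Fzd2 had 49.6, 44.2 and 34.8 CPM in iRGCs and 5.69, 11.4 and 9.46 CPM in cRGCs. It was thus 4.84-fold higher in iRGCs (interval 3.16 to 7.40, log2 fold change 2.27, SE 0.270, adjusted p = 3.51e-04). Fzd7 had 24.8, 32.5 and 19.7 CPM in iRGCs and 1.61, 7.04 and 4.23 CPM in cRGCs, with the wider relative spread in cRGCs. Its ratio was 5.96 (interval 2.86 to 12.4, log2 fold change 2.57, SE 0.467, adjusted p = 0.0024). Fzd1 had 11.6, 20.7 and 15.3 CPM in iRGCs and 9.19, 18.0 and 13.5 CPM in cRGCs. The Fzd1 ranges overlapped over most of their length, with replicate 2 highest and replicate 1 lowest in both populations. Its ratio was 1.17 with an interval of 0.725 to 1.89 (log2 fold change 0.23, SE 0.305, adjusted p = 0.602), so a change of a size such as that of Fzd2 lay outside the interval and a small difference in either direction inside it.

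Fzd3 and Fzd6 are the receptors most closely tied to planar cell polarity, and Fzd3 is required for the guidance of many axon tracts. Fzd3 (ENSMUSG00000007989, chr14:65192449-65262463, minus strand, 8 exons) had 73.9, 77.4 and 66.0 CPM in iRGCs and 68.9, 68.8 and 64.4 CPM in cRGCs. All 6 libraries lay within a narrow band, and iRGC replicate 3 was below 2 of the cRGC libraries. The ratio was 1.07 with an interval of 0.900 to 1.28 (log2 fold change 0.10, SE 0.113, adjusted p = 0.512). With library totals alone, a scaling that moved the median log2 fold change of all genes to 0.20, Fzd3 was called with 0.31 (adjusted p = 0.0676). Fzd6 (ENSMUSG00000022297, chr15:39006034-39038188, plus strand, 9 exons) had 12.0, 16.2 and 7.98 CPM in iRGCs and 1.77, 1.48 and 0.904 CPM in cRGCs. Its ratio of 8.70, with an interval of 4.52 to 16.8, was the largest estimate among the 10 genes (log2 fold change 3.12, SE 0.416, adjusted p = 5.53e-04). The interval of Fzd6 did not meet that of Fzd3, its nearest relative, although no test of the difference between genes was made.

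Fzd4, Fzd9 and Fzd10 make up the last branch. Fzd4 is the receptor of norrin, the product of Ndp, and with Lrp5 and Tspan12 it is required for the growth of retinal vessels. Fzd4 (ENSMUSG00000049791, chr7:89404355-89413134, plus strand, 2 exons) had 6.05, 9.92 and 4.38 CPM in iRGCs and 0.961, 1.48 and 0.968 CPM in cRGCs. The cRGC libraries lay close together, and replicate 2 was the highest of the iRGC libraries (log2 fold change 2.57, SE 0.491, adjusted p = 0.00311). Fzd10 (ENSMUSG00000081683, chr5:128600844-128604093, plus strand, 1 exon) had 4.34, 6.86 and 5.58 CPM in iRGCs and 0.500, 1.59 and 0.355 CPM in cRGCs, which were 13, 46 and 11 reads. Its libraries were apart, and the fold change was 2.77 on the log2 scale (SE 0.664, adjusted p = 0.00964). Without cRGC replicate 2, its highest cRGC library, it was 3.72. Fzd9 (ENSMUSG00000049551, chr5:135248938-135251230, minus strand, 1 exon) had 2.70, 2.20 and 3.56 CPM in iRGCs and 0.730, 0.552 and 1.26 CPM in cRGCs, the latter from 19, 16 and 39 reads. Its call was the least firm of the 8 (log2 fold change 1.73, interval 0.22 to 3.24, SE 0.667, adjusted p = 0.0694). The call was lost without iRGC replicate 3 (adjusted p = 0.213) and without cRGC replicate 1 (0.153) or 2 (0.192). With no filter on low counts (0.174) or with the replicate block (0.123) it was lost as well.

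**Figure D2:**
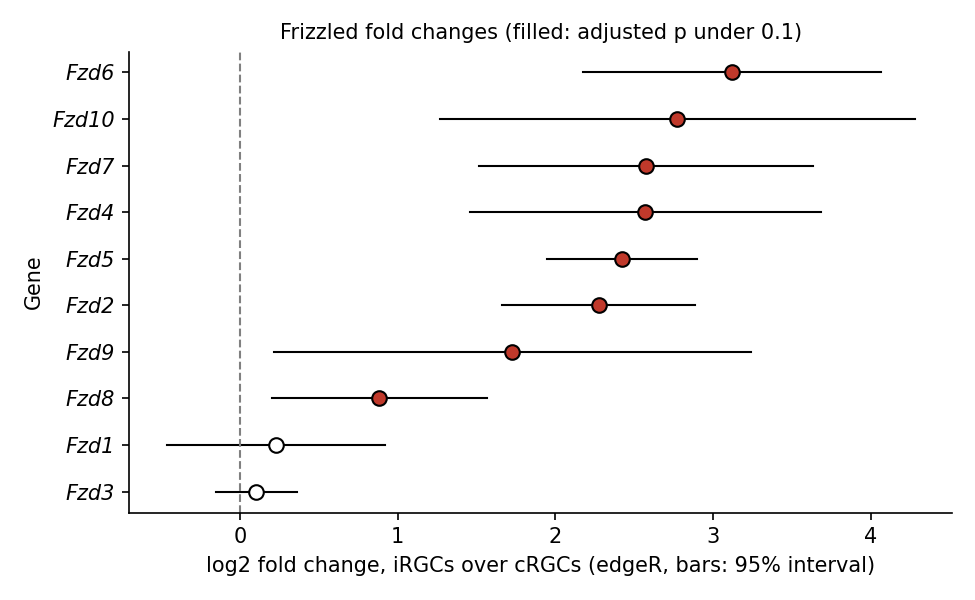
Log2 fold change of each Frizzled gene, iRGCs over cRGCs, from edgeR, with 95% intervals as bars and called genes filled, ordered by size. The intervals of Fzd1 and Fzd3 span 0, and those of the other 8 genes lie above it, with estimates of 0.88 (Fzd8) to 3.12 (Fzd6).

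The 250 bases before the RefSeq start (GRCm38.p6) were held for 6 of the 10 genes (Fzd1, Fzd4, Fzd5, Fzd7, Fzd9 and Fzd10). The windows of Fzd9 and Fzd10, both higher in iRGCs, have 1 GC box (GGGCGG) each and are not shown. The 4 windows shown are those of Fzd5, Fzd4 and Fzd7, the 3 called genes with the most GC boxes, and that of Fzd1, which was not called. Each runs 5′ to 3′ on the strand of its gene, and capitals mark the GC box GGGCGG on either strand, whose copies may overlap, and the TATA box TATAAA.
Fzd5 (chr1:64737751-64738000, minus strand): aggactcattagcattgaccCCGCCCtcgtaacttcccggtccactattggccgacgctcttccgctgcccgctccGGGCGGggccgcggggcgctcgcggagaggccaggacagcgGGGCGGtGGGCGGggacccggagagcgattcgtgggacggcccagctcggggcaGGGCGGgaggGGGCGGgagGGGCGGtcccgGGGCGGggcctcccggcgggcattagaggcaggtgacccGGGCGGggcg
Fzd4 (chr7:89404116-89404365, plus strand): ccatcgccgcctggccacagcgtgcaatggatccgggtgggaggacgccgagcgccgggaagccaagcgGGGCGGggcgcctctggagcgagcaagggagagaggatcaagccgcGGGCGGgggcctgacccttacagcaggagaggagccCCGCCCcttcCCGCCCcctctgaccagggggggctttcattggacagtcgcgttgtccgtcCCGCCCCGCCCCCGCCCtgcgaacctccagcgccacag
Fzd7 (chr1:59481897-59482146, plus strand): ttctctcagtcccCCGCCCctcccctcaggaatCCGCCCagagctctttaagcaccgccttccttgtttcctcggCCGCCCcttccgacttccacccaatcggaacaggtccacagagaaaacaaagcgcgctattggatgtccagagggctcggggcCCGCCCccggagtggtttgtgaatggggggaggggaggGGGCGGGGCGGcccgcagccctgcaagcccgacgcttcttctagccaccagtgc
Fzd1 (chr5:4758217-4758466, minus strand): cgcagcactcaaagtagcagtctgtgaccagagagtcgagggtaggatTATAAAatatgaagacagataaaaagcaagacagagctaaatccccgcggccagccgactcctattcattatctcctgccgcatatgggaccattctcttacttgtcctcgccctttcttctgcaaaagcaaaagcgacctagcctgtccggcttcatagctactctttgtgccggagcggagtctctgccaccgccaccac
The GC box, the letters read by Sp1, occurred 9 times before Fzd5, 7 times before Fzd4 and 6 times before Fzd7, once each before Fzd9 and Fzd10, and not before Fzd1. It was held by 33.0% of 32536 RefSeq promoter windows of this length, while 0.894% had at least 6 copies and 0.0738% at least 9. The windows before Fzd5, Fzd9 and Fzd10 had 76.4% G and C, that of Fzd4 72.8%, that of Fzd7 65.2% and that of Fzd1 51.2%, against a median of 52.4% over all windows. The CG dinucleotide, the target of DNA methylation, occurred 42 times before Fzd9, 37 before Fzd10, 32 before Fzd5, 25 before Fzd4, 17 before Fzd7 and 12 before Fzd1, against a median of 6. The TATA box was found only before Fzd1 and is held by 12.3% of windows. The letters CTTTGAT and CTTTGAA, read by TCF and LEF factors, were searched on both strands and were in 0 of the 6 windows, against 7.50% of all windows, and CCAAT, searched likewise, was in 3 of the 6 (Fzd4, Fzd5 and Fzd7), against 33.8%. These are matches of letters within 250 bases and say nothing of binding. RefSeq and GENCODE place the starts differently. The window of Fzd10, most of that of Fzd9, the last bases of that of Fzd4 and the last base of that of Fzd5 lie in exons of the GENCODE annotation, while those of Fzd1 and Fzd7 end upstream of the GENCODE starts.

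Levels of different genes were compared per length, as CPM per kb of exon. In iRGCs, Fzd5 led with 55.8 ± 6.97 CPM per kb, followed by Fzd2 with 11.7 ± 2.05, Fzd7 with 5.66 ± 1.42 and Fzd3 with 5.65 ± 0.456 (SD, n = 3 each). Then came Fzd1 (3.78 ± 1.10), Fzd6 (2.50 ± 0.856), Fzd8 (1.79 ± 0.154), Fzd10 (1.72 ± 0.388), Fzd9 (1.23 ± 0.302) and Fzd4 (1.01 ± 0.423). The ranges of neighbours over the 3 libraries were apart between Fzd5 and Fzd2, between Fzd2 and Fzd7 and between Fzd3 and Fzd1, and overlapped for the other neighbours. Read within each library, Fzd1 was also above Fzd6, Fzd6 above Fzd8 and Fzd10 above Fzd9 in all 3 iRGC libraries, whereas the order of Fzd7 and Fzd3, of Fzd8 and Fzd10 and of Fzd9 and Fzd4 changed from library to library.

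In cRGCs, Fzd5 was again first with 10.4 ± 3.16 CPM per kb, but Fzd3 was second with 5.26 ± 0.198 followed by Fzd1 with 3.23 ± 1.05. Fzd2 had 2.42 ± 0.791 CPM per kb, Fzd8 0.970 ± 0.278 and Fzd7 0.948 ± 0.599. The other 4 genes were all below 0.4 on average, with Fzd9 at 0.369 ± 0.160, Fzd6 at 0.288 ± 0.0915, Fzd10 at 0.251 ± 0.207 and Fzd4 at 0.169 ± 0.0446 CPM per kb. Here the ranges of Fzd5 and Fzd3, of Fzd3 and Fzd1 and of Fzd2 and Fzd8 were apart, and those of the other neighbours overlapped. Within each library, Fzd1 was also above Fzd2 and Fzd7 above Fzd9 in all 3 cRGC libraries.

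The summed Frizzled level was 99.0, 93.1 and 80.4 CPM per kb in the iRGC libraries and 19.7, 30.7 and 22.5 CPM per kb in the cRGC libraries. Fzd5 made up most of that sum in iRGCs, and without it the sums were 35.1 ± 5.12 and 13.9 ± 2.79 CPM per kb. Its share was 64.4%, 57.0% and 62.9% in the iRGC libraries and 43.5%, 45.7% and 38.2% in the cRGC libraries. Fzd3, whose own level did not pass the test, made up 6.24% ± 0.360 of the sum in iRGCs and 22.4% ± 4.95 in cRGCs, and Fzd1 made up 4.21% ± 1.29 and 13.1% ± 1.71. The pair of Fzd5 and Fzd8 together held 63.4% ± 3.83 in iRGCs and 46.5% ± 2.99 in cRGCs, and the pair of Fzd3 and Fzd6 held 8.97% ± 0.989 and 23.6% ± 5.40. The joint share of Fzd1, Fzd2 and Fzd7 was 23.2% ± 2.38 and 26.6% ± 5.00. Within a library, where scaling cancels, Fzd5 had 8.77 to 11.0 times the level of Fzd3 per kb in iRGCs and 1.59 to 2.62 times in cRGCs. Fzd2 had 2.44 to 4.91 times the level of Fzd1 in iRGCs and 0.709 to 0.805 times in cRGCs, so their order was turned round.

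**Figure D3:**
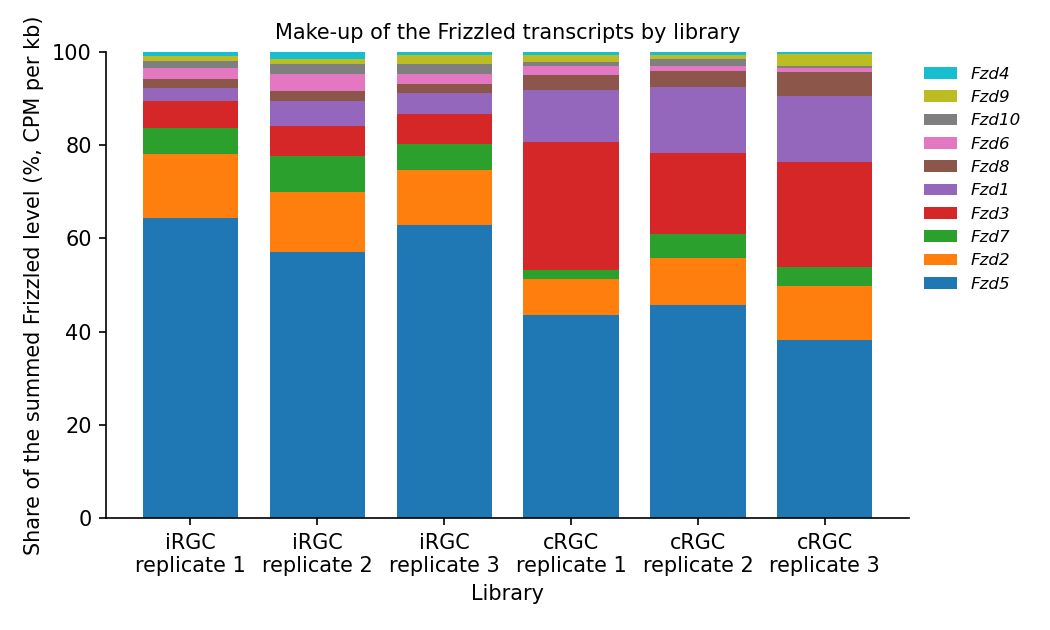
Share of each Frizzled gene in the summed Frizzled level of a library, in percent of CPM per kb, as stacked bars. The Fzd5 block takes 57.0% to 64.4% in the iRGC libraries and 38.2% to 45.7% in the cRGC libraries, where the Fzd3 and Fzd1 blocks are wider.

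Replicates of a population deviated together in several members. In iRGCs, replicate 2 was the highest library for 7 of the 10 genes and replicate 3 the lowest for 7, and in cRGCs replicate 2 was the highest for 6 and replicate 1 the lowest for 6. The log2 CPM of Fzd2 and Fzd5 had a Pearson r of 0.983 over the 6 libraries and that of Fzd4 and Fzd6 of 0.976, while that of Fzd1 and Fzd9 had 0.161. These values describe 2 groups of 3 libraries, so for called genes they mostly restate the gap between the populations. Among 14002 tested genes with a mean of at least 1 CPM, those most like Fzd5 were Mthfd1 (r = 0.9995), an enzyme of folate metabolism, Nasp (0.9994), a histone chaperone, and Lgr4 (0.9994), the R-spondin receptor, and 262 genes had r above 0.99. Most like Fzd2 were Aurka (0.9996), a kinase of the mitotic spindle, Cenpn (0.9994), a centromere protein, and Tead1 (0.9993), a transcription factor, with 256 genes above 0.99. For Fzd7 they were Mrc2, Sft2d2 and Efemp1, with 55 genes above 0.99, for Fzd4 Metap1d, Bmpr1b and Sgms1 with 21, and for Fzd6 Mcfd2, Lrp4 and Scrib with 22. Fzd10 was most like Scml2, Timm17b and Stard5 with 18 genes above 0.99, Fzd8 like 9930014A18Rik, A930005G22Rik and Arhgef5 with 25, and Fzd9 like 4921524J17Rik, Srp9 and Gm43143 with 6.

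Markers of cells other than neurons and progenitors also moved with the population. The endothelial list summed to 481, 780 and 437 CPM in iRGCs and to 89.2, 109 and 72.0 CPM in cRGCs, and all 7 of its 15 genes that could be tested were higher in iRGCs. In cRGCs, 5 to 9 of the 15 genes were at 0 in a library, and in iRGCs 0 to 2. Its most abundant gene was Kdr, with 366, 320.5 and 418 CPM against 83.7, 103 and 67.6 CPM. Cdh5, a defining marker of endothelium, was at 15.2, 81.3 and 0.158 CPM in iRGCs and at 0 in every cRGC library, and Pecam1 was at 9.65, 53.0 and 0.284 CPM in iRGCs and at 0, 0.725 and 0 CPM in cRGCs. Of the 15 endothelial genes, 13 were highest in iRGC replicate 2 among the iRGC libraries, and 11 were below 1 CPM in iRGC replicate 3. The exceptions to both counts were Kdr, highest in replicate 3, and Cldn5, highest in replicate 1 and at 11.8 CPM in replicate 3 against 0.884 to 2.93 CPM in cRGCs. Flt1 and Egfl7 were not below 1 CPM in iRGC replicate 3 either. Flt1 was there at 2.59 CPM against 0.161 to 1.15 CPM in cRGCs, and Egfl7 at 2.68 CPM against 1.07 to 1.52 CPM. Without Kdr, the list summed to 115, 459 and 18.5 CPM in iRGCs and to 5.50, 6.04 and 4.42 CPM in cRGCs. Cdh5, Pecam1, Cldn5, Flt1 and Egfl7 were named after their values were seen. Fzd4, at 6.05, 9.92 and 4.38 CPM in iRGCs, was likewise highest in replicate 2 and lowest in replicate 3, as were Cdh5 and Pecam1. All 8 called Frizzled genes were above every cRGC library in iRGC replicate 3. Without iRGC replicate 2, Fzd4 remained called (log2 fold change 2.19, adjusted p = 0.0232) and 7 Frizzled genes were called, all but Fzd8 of the 8. The part of endothelial cells in these values was not tested.

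The mural cell list, led by Notch3, summed to 135, 278 and 121 CPM in iRGCs and to 20.8, 31.8 and 23.2 CPM in cRGCs, with 4 of 5 tested genes higher. Without Notch3 the sums were 22.4, 161 and 37.0 CPM in iRGCs and 3.77 to 5.04 CPM in cRGCs. The ciliary margin list, led by Col9a1, summed to 344, 602 and 326 CPM against 116, 165 and 97.5 CPM, with 5 of 9 genes higher. Without Col9a1 its sums were 84.1, 276 and 40.5 CPM in iRGCs and 20.6, 35.5 and 36.9 CPM in cRGCs, so that iRGC replicate 3 was close to the cRGC libraries. Both lists were largest in iRGC replicate 2, with or without their leading gene. Photoreceptor precursor genes, led by Otx2, summed to 807, 642 and 626 CPM in iRGCs and 169.5, 256 and 206 CPM in cRGCs, with 5 of 6 tested genes higher and 1 lower. Amacrine genes, led by Tfap2b, summed to 308, 261 and 371 CPM against 129, 156 and 102 CPM, with 7 of 8 higher. Horizontal cell genes, led by Onecut2, overlapped in sum, with 265, 284 and 234 CPM against 240.2, 250.4 and 393 CPM, and 1 of 5 was higher. The lists of fibroblasts (led by Col1a2, 2 of 4 tested genes higher), pigment epithelium (Rlbp1, 1 of 5), microglia (Csf1r, 4 of 8), lens (Bfsp1, 0 of 1) and optic stalk astrocytes (Aldh1l1, 0 of 2 higher and 1 lower) summed to less than 38 CPM in every library. Fibroblast genes summed to 18.3, 37.6 and 10.7 CPM in iRGCs and 8.73 to 10.2 CPM in cRGCs, microglial genes to 20.8, 27.1 and 16.7 CPM against 1.12 to 4.25 CPM, pigment epithelium genes to 9.27 to 11.4 CPM against 3.73 to 6.39 CPM, and lens genes to 2.62 to 8.66 CPM against 1.08 to 2.31 CPM. Lum of the fibroblast list and Mip of the lens list were at 0 in all libraries. Astrocyte genes summed to 5.73 to 7.05 CPM in iRGCs and 8.04 to 9.57 CPM in cRGCs. Without iRGC replicate 1, the numbers called changed for the ciliary margin (6 of 9 higher), mural cells (6 of 6), fibroblasts (3 of 5 higher, 1 lower), microglia (6 of 9) and optic stalk astrocytes (1 of 3 higher, 1 lower), and not for the endothelial, photoreceptor precursor, amacrine, horizontal cell, pigment epithelium and lens lists. Some genes counted in these lists passed the filter on low counts only through their iRGC libraries. Prrx1, with 19, 39 and 25 reads in iRGCs and 0 in each cRGC library, was such a gene, as were Rgs5 and Msx1. They could be called higher but hardly lower, so the numbers called higher are in part set by the filter. The parts of these cells in the Frizzled values were not tested.

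**Figure D4:**
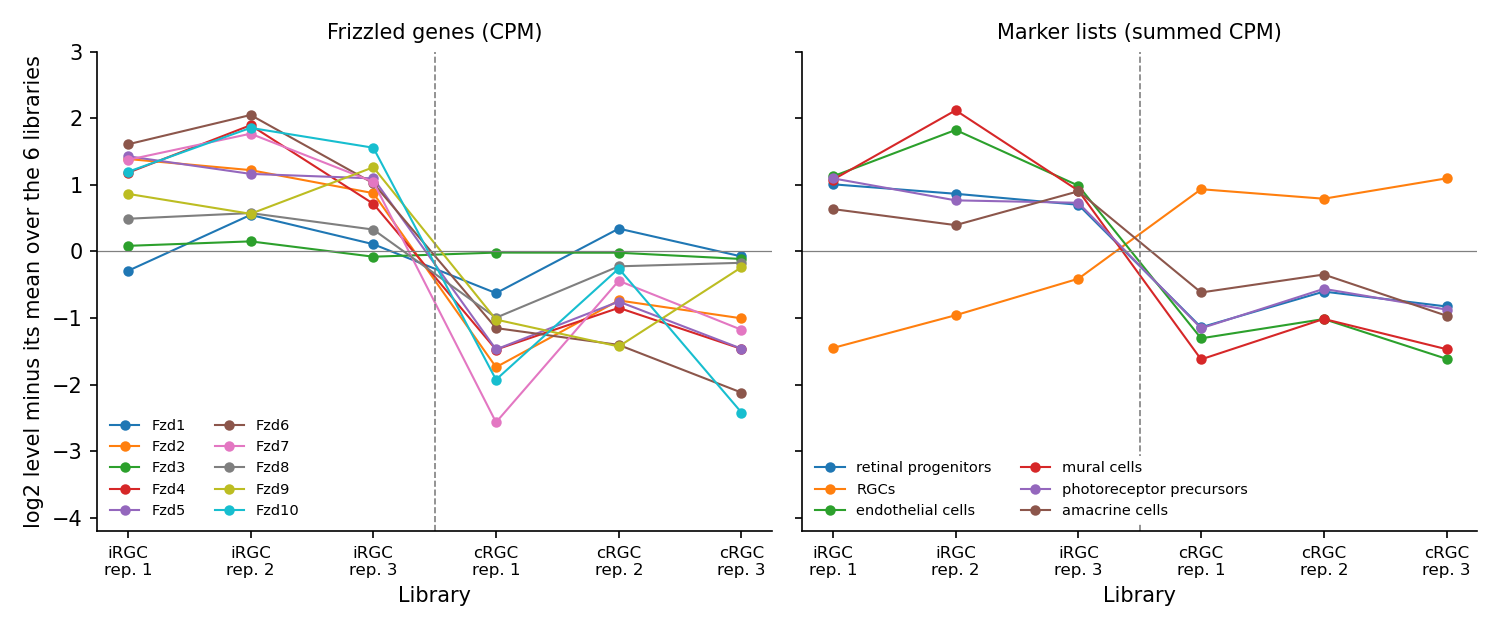
Log2 level of each Frizzled gene (left, CPM) and of 6 marker lists (right, summed CPM) in each library, minus its mean over the 6 libraries, with iRGC libraries left of the dashed line. The 8 called Frizzled genes and all the lists shown except RGCs are higher in iRGCs, the endothelial and mural lists peak in iRGC replicate 2, and Fzd3 stays near 0 while Fzd1 crosses it within both populations. In iRGC replicate 3, Kdr gave 418 of the 437 CPM of the endothelial sum and Notch3 83.5 of the 121 CPM of the mural sum.

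Genes that act with the Frizzled receptors were read as 8 lists with 102 genes, of which 79 were tested. In all, 37 (46.8%) were higher in iRGCs, 18 (22.8%) were lower and 24 were not called, against 23.3% and 23.1% of all tested genes. Without iRGC replicate 1, 35 were higher and 20 lower, and the numbers called changed only for the ligands (4 higher and 5 lower of 14 tested) and for the TCF and LEF factors and coactivators (3 higher and 2 lower of 8). The median log2 fold change of the 79 genes was 0.43. The lists of co-receptors, receptor modulators, secreted antagonists and beta-catenin targets had no gene called lower, while the list of the cytoplasmic relay had 8 called lower and 3 higher.

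Of the co-receptors and other Wnt-binding receptors, 4 of 6 tested were higher in iRGCs and none lower. Lrp5, which pairs with Frizzled to relay Wnt and norrin, had 202, 148 and 148 CPM in iRGCs and 42.3, 50.6 and 39.0 CPM in cRGCs (log2 fold change 1.92, SE 0.163, adjusted p = 2.05e-04). Its relative Lrp6 was apart by much less, with 168 ± 19.0 against 123 ± 4.38 CPM (0.45, SE 0.113, adjusted p = 0.0123). Ryk, a receptor that repels axons from Wnts, had 105 ± 4.99 against 78.0 ± 5.19 CPM (0.43, SE 0.107, adjusted p = 0.0115). Ror1, a receptor of Wnt5a, had 18.4 ± 2.26 against 3.45 ± 0.975 CPM (2.41, SE 0.287, adjusted p = 3.59e-04). Ror2 with 3.60 ± 2.02 against 3.13 ± 1.59 CPM and Ptk7 with 108 ± 13.4 against 94.8 ± 11.3 CPM were not called, and Musk had 0 counts in all 6 libraries, which allows up to 3 counts in each.

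Among proteins that set the number or the reach of Frizzled receptors at the cell surface, 5 of 11 tested were higher in iRGCs and none lower. Shisa2, which holds immature Frizzled inside the cell, had 94.5, 91.2 and 88.0 CPM in iRGCs and 11.3, 21.9 and 12.9 CPM in cRGCs (log2 fold change 2.57, SE 0.237, adjusted p = 2.05e-04). Adgra2, which presents Wnt7 ligands to Frizzled together with Reck in brain endothelium, had 20.7, 32.2 and 14.4 CPM against 4.31, 5.45 and 2.45 CPM (2.46, SE 0.388, adjusted p = 0.0012). Apcdd1, an inhibitor at the membrane, had 10.5 ± 3.71 against 2.19 ± 1.12 CPM (2.26, SE 0.492, adjusted p = 0.00613). Shisa2 was the most abundant of these 3 and its iRGC libraries lay closest together. Outside the rule for naming genes, and chosen after their values were seen, are Znrf3, the ligase that removes Frizzled from the membrane (1.22, SE 0.218, adjusted p = 0.00223), and Lgr4, which restrains it (1.33, SE 0.134, adjusted p = 2.32e-04), the other called genes of this list. Reck (34.1 ± 6.51 against 34.7 ± 5.27 CPM) and Tspan12, which helps Fzd4 to respond to norrin (20.3 ± 5.41 against 20.6 ± 5.10 CPM), named likewise after their values were seen, were not called.

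Of 22 ligands and ligand-handling genes, 11 were tested, of which 4 were higher and 4 lower. Wnt7b had 5.85, 7.51 and 6.31 CPM in iRGCs and 0.308, 1.73 and 1.10 CPM in cRGCs (log2 fold change 2.64, SE 0.618, adjusted p = 0.0086). Wnt5b had 8.42 ± 0.493 against 2.03 ± 1.26 CPM (2.05, SE 0.535, adjusted p = 0.0145). Wls, which carries Wnts to the surface, was at 3.60, 3.99 and 1.01 CPM against 0, 0.380 and 0.194 CPM (3.87, SE 1.20, adjusted p = 0.031), and its call was lost without iRGC replicate 2 (adjusted p = 0.103), while the fold change was 4.81 without cRGC replicate 2. In the other direction, Wnt3 had 1.99, 3.22 and 4.19 CPM in iRGCs and 13.4, 14.3 and 14.2 CPM in cRGCs (-2.16, SE 0.323, adjusted p = 9.37e-04). Porcn, the enzyme that attaches the lipid of Wnt proteins, had 23.4 ± 7.79 against 55.5 ± 4.68 CPM (-1.25, SE 0.222, adjusted p = 0.00218). Wnt4 was lower too, with 0, 1.17 and 2.05 CPM against 9.46, 4.56 and 6.42 CPM (-2.66, SE 1.07, adjusted p = 0.0815). The Wnt4 call was lost without iRGC replicate 2 or any of the cRGC libraries (adjusted p = 0.112 to 0.218) and with the replicate block (0.134). Its fold change was -3.53 without iRGC replicate 3 and -4.21 with limma voom. Ndp, the norrin gene, was named after its values were seen, with 4.21, 4.14 and 4.32 CPM in iRGCs and 9.61, 8.84 and 8.07 CPM in cRGCs (-1.06, SE 0.283, adjusted p = 0.0157). Norrin and its receptor Fzd4 thus differed in opposite directions between the populations. The remaining call, Wnt5a, also named after its values were seen, was higher in iRGCs (1.96, SE 0.407, adjusted p = 0.00483).

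Secreted antagonists were higher in iRGCs in 5 of 9 tested genes and lower in none. Sfrp2, a soluble relative of the Frizzled cysteine-rich domain, had 327, 495 and 157.5 CPM in iRGCs and 15.7, 50.5 and 63.2 CPM in cRGCs (log2 fold change 2.92, SE 0.536, adjusted p = 0.00256). Dkk1, which blocks Lrp5 and Lrp6, had 0.643, 6.03 and 0.725 CPM in iRGCs and 0, 0.138 and 0 CPM in cRGCs. Dkk1 passed the filter on low counts only through its iRGC libraries, so it could hardly be called lower. Most Dkk1 reads were from iRGC replicate 2, and the call (adjusted p = 0.023) was lost without it (adjusted p = 0.175). Notum, an enzyme that strips the Wnt lipid, had 4.73, 18.2 and 4.54 CPM against 1.38, 2.79 and 1.81 CPM (2.20, SE 0.615, adjusted p = 0.0198), also lost without iRGC replicate 2 (1.21, adjusted p = 0.139). The other called genes of this list, Dkk3 and Sfrp1, were named after their values were seen. Dkk3 had 1305 ± 43.6 against 342 ± 70.5 CPM (1.93, SE 0.153, adjusted p = 2.05e-04). Sfrp1 had 83.2 ± 13.7 against 50.3 ± 9.69 CPM (0.73, SE 0.180, adjusted p = 0.0114). Sfrp2 and Ccnd1 are in the progenitor list as well.

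In the relay from Dishevelled to beta-catenin, 8 of 13 tested genes were lower in iRGCs and 3 higher, with a median log2 fold change of -0.40. Apc2 and Apc, scaffolds of the complex that destroys beta-catenin, had 266 ± 51.6 against 932 ± 93.8 CPM (-1.81, SE 0.154, adjusted p = 2.05e-04) and 401 ± 46.5 against 922 ± 77.9 CPM (-1.20, SE 0.120, adjusted p = 2.25e-04). Dvl3 was lower with 80.5 ± 6.23 against 124 ± 8.78 CPM (-0.62, SE 0.112, adjusted p = 0.00234). The Dishevelled genes were split, since Dvl2 was higher with 61.0 ± 0.885 against 39.0 ± 0.165 CPM (log2 fold change 0.64, adjusted p = 0.00177). Axin1, another scaffold of that complex, had 79.8 ± 13.5 against 57.5 ± 2.75 CPM (0.47, SE 0.144, adjusted p = 0.0282). Ctnnb1, beta-catenin itself, had 1242 ± 56.6 against 915 ± 77.5 CPM (0.44, SE 0.103, adjusted p = 0.0087).

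Of 8 TCF and LEF factors and coactivators, 5 were higher in iRGCs, 1 was lower and 2 were not called. Tcf7 had 11.3, 18.5 and 5.17 CPM in iRGCs and 1.11, 2.55 and 1.71 CPM in cRGCs (log2 fold change 2.70, SE 0.528, adjusted p = 0.00355). Tcf7l2 had 35.1 ± 10.9 against 6.44 ± 1.35 CPM (2.44, SE 0.277, adjusted p = 2.89e-04) and Tcf7l1, mostly a repressor, 29.4 ± 0.851 against 6.51 ± 3.66 CPM (2.17, SE 0.400, adjusted p = 0.00259). Lef1 was called with 6.79, 14.3 and 4.48 CPM against 0.538, 2.28 and 4.68 CPM, although its libraries overlapped (1.76, SE 0.724, adjusted p = 0.0857), and the call was lost without replicate 1 or 2 of either population (adjusted p = 0.105 to 0.310), with a fold change of 1.17 without iRGC replicate 2 and of 2.59 without cRGC replicate 3. The 4 factors that bind DNA were thus all higher, while the coactivators were divided. Bcl9l (55.8 ± 3.63 against 45.7 ± 2.80 CPM, adjusted p = 0.0904) was higher and Pygo1 (89.4 ± 9.32 against 128 ± 9.00 CPM, adjusted p = 0.00752) lower. The Bcl9l call was lost without any single library other than iRGC replicate 2. With no filter on low counts (adjusted p = 0.193) or with the replicate block (0.140) it was lost as well. Bcl9 (132 ± 10.3 against 156 ± 11.0 CPM) and Pygo2 (82.5 ± 5.50 against 85.9 ± 5.33 CPM) were not called.

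Among target genes of beta-catenin, 4 of 6 tested were higher and none lower. Ccnd1, the cyclin of the G1 phase, had 3362, 2649 and 2520 CPM in iRGCs and 277, 779 and 471 CPM in cRGCs (log2 fold change 2.48, SE 0.329, adjusted p = 5.39e-04). Bambi, a decoy receptor for TGF-beta and BMP ligands, had 26.6 ± 4.00 against 8.00 ± 1.13 CPM (1.74, SE 0.207, adjusted p = 3.58e-04). Tnfrsf19 had 6.02 ± 3.01 against 1.80 ± 1.82 CPM (1.74, SE 0.732, adjusted p = 0.0928, and 3.01 without cRGC replicate 2), a call lost without iRGC replicate 2 or 3 or cRGC replicate 1 or 3 (adjusted p = 0.102 to 0.303). Axin2, the target most often used to read this pathway, was chosen after its values were seen, with 18.9, 12.2 and 13.4 CPM in iRGCs and 18.7, 14.9 and 18.5 CPM in cRGCs. It did not pass the test (log2 fold change -0.23, SE 0.226, adjusted p = 0.477), and its libraries overlapped.

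Of the planar cell polarity genes, 7 of 15 were higher and 5 lower. Celsr1, a large cadherin that recruits Frizzled at cell contacts, had 37.6, 34.6 and 28.3 CPM in iRGCs and 2.27, 6.73 and 4.58 CPM in cRGCs (log2 fold change 2.88, SE 0.360, adjusted p = 4.27e-04). Its relative Celsr3, which acts with Fzd3 in axon guidance, was lower with 164.5, 189 and 197 CPM against 501, 391 and 460 CPM (-1.30, SE 0.126, adjusted p = 2.17e-04). Members of this family thus differed in opposite directions. Fuz, a factor of ciliogenesis, had 14.5 ± 1.32 against 3.91 ± 1.61 CPM (1.88, SE 0.332, adjusted p = 0.00208), and Daam2, a formin that binds Dishevelled, had 2.88 ± 2.38 against 0.213 ± 0.194 CPM (3.72, SE 1.22, adjusted p = 0.0379), lost without iRGC replicate 2 (2.80, adjusted p = 0.202) or cRGC replicate 3 (adjusted p = 0.101), while without cRGC replicate 2 the fold change was 4.41. Prickle2 (17.1 ± 2.06 against 38.3 ± 7.75 CPM, adjusted p = 0.00163) and Ankrd6 (17.3 ± 2.56 against 32.8 ± 5.81 CPM, adjusted p = 0.00548), the latter a Dishevelled-binding protein, were lower. Exons of Sfrp2, Notum, Fuz, Ccnd1, Dvl2, Ctnnb1 and Lef1 overlap other genes over 13.8% to 38.5% of their length, and the use of strand in counting was not stated in the sources used here, so reads there are uncertain.

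**Figure D5:**
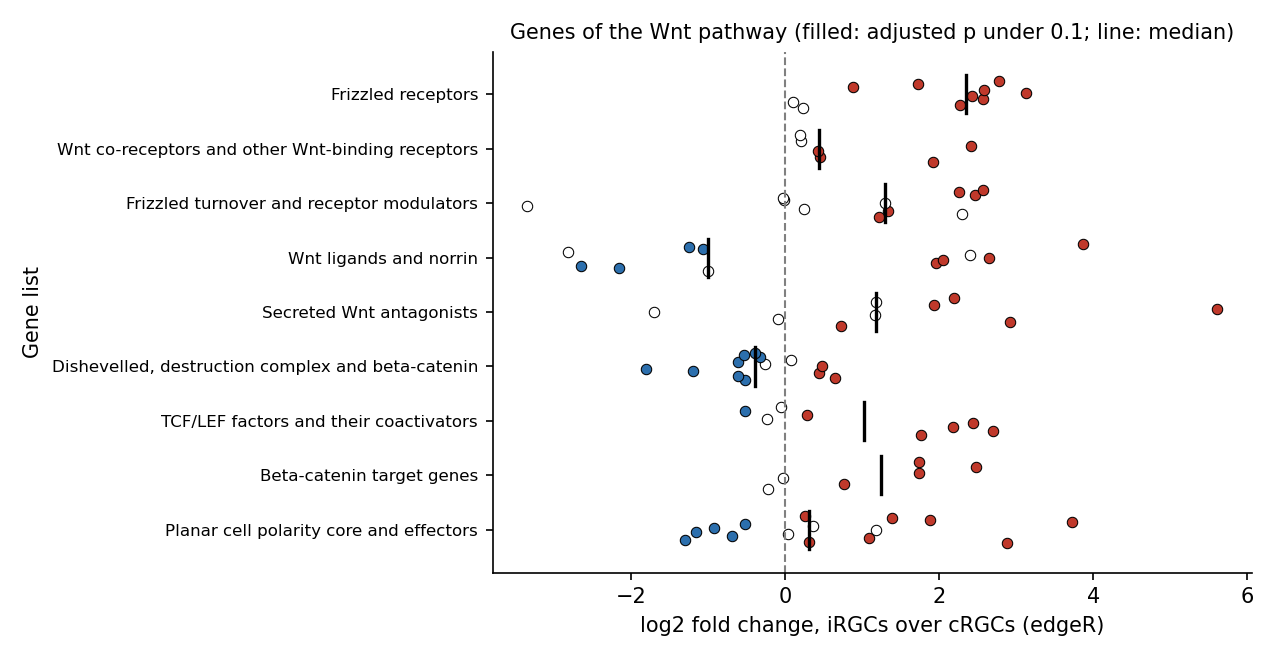
Log2 fold change, iRGCs over cRGCs, of the 10 Frizzled genes and of each tested gene of 8 Wnt pathway lists, with filled points for called genes (red higher, blue lower in iRGCs), open points for the others and a line at each list's median. The Frizzled median is 2.35, and blue points are most frequent in the list of Dishevelled, the destruction complex and beta-catenin, whose median is -0.40.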

How the data were processed

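RNA-seq libraries of sorted GFP-positive cells, 3 of iRGCs and 3 of cRGCs, were analysed, and the 13 ATAC-seq samples were not. The authors used HISAT2 (2.1.0) and the mm10 genome for alignment, took counts for Ensembl genes (GRCm38) with HTSeq (0.11.1) and deposited these raw counts, 1 table per library; the versions are those of the submitters' processing notes. Symbols, positions and exon lengths came from GENCODE M21 for 46574 of 47069 genes, and promoter windows from RefSeq (GRCm38.p6). Rows that name no gene, 43.1% to 47.3% of all tallies, were left out.

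The test was that of edgeR 4.0.16 in R 4.3.3 (filterByExpr, TMM, quasi-likelihood F test, two-sided, no block), with Benjamini-Hochberg adjustment over 15941 genes and a threshold of 0.1, the false discovery rate of the study, which used DESeq2 (1.26.0). The iRGC libraries had TMM factors of 1.03 to 1.10, the cRGC libraries of 0.921 to 0.952. The SE was the absolute log2 fold change over the square root of F. The biological coefficient of variation was 36.3%. The fit was first run on simulated data with the dispersions of this fit and a small set of changed genes, as many higher as lower. As far more genes were called in the real data, that run cannot test the scaling. Depth limits the genes with few reads, such as Fzd9 and Fzd10.

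Besides the 10 members, the genes named were those that check the labels, all genes of pathway lists of up to 8 genes, the 3 called genes with the largest change in each direction of longer lists (mean of at least 1 CPM), and the 3 genes most correlated with each called member. Members and lists were chosen with earlier results of these data known. The alternatives were DESeq2 size factors, upper quartile factors or library totals, DESeq2 1.42.0, limma 3.58.1 (voom), no filter or a minimum of 10 counts in all libraries, leaving out single libraries, a replicate block, an adjusted p under 0.05, an absolute log2 fold change above 1 and, for levels per kb, the longest transcript or library totals. Figures were drawn with matplotlib 3.10.9.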

Additional observations from a re-analysis of the deposited data

How the results depend on the processing

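Fzd2, Fzd4, Fzd5, Fzd6, Fzd7 and Fzd10 were called higher under all 14 alternatives of scaling, test, filter, block and left-out library, with log2 fold changes of 2.04 to 3.72 over these genes, the highest that of Fzd10 without cRGC replicate 2 (2.77 with all libraries). The count of Frizzled genes called higher was 6 (without cRGC replicate 1) to 9 (library totals alone), and 0 were called lower under each alternative. Fzd8 ranged from 0.66 to 1.03 with a library left out and was not called without iRGC replicate 2 (0.83) or cRGC replicate 1 (0.66). Fzd9 ranged from 1.51 to 2.14 with a library left out, was not called at 1.73 with no filter on low counts or at 1.73 under an adjusted p under 0.05, and was not called at 1.79 with the replicate block. Fzd1 ranged from -0.011 (without iRGC replicate 2) to 0.50, and Fzd3 reached the threshold with library totals alone (0.31), the scaling that moved the median of all genes from -0.0031 to 0.20. With an absolute log2 fold change above 1, 8 pathway genes were lower in place of 18, and 27 were higher in place of 37. Directions turned for Slc6a4 (-0.86 with limma voom, -0.54 with the replicate block, -1.11 to 0.98 with a library left out, the lowest without iRGC replicate 3 and the highest without iRGC replicate 1), for Ror2 (-0.36 to 0.62 with a library left out, negative without iRGC replicate 2 or, at -0.11, without cRGC replicate 3) and for Pygo2 (0.15 with library totals alone), none of which was called. The level of Fzd3 in cRGCs was 4.90 CPM per kb with library totals. The cause of these changes was not tested. Of the other named genes' fold changes under the alternatives, 591 kept their direction and their side of the threshold, 25 lost the call and 3 gained it.

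Whether same-numbered libraries were prepared together was not stated in the sources used here. Their deviations from the group means had correlations of -0.01, -0.02 and -0.06 over 15941 genes, which gave no sign of pairing but cannot exclude it. With the replicate block, Fzd9, Wnt4 (adjusted p = 0.134) and Bcl9l (adjusted p = 0.140) lost their calls, 7 Frizzled genes were called in place of 8, and 36 pathway genes were higher and 18 lower in place of 37 and 18, counts that do not say which genes.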
